A study of Rattus norvegicus with 6 samples.

Results

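The genes described here encode the enzymes and the carrier that bring long-chain fatty acids into liver mitochondria and shorten them there: Cpt1a, Cpt2, Slc25a20, Acadm, Acadl, Acadvl, Acads, Hadha, Hadhb and Acaa2. They were chosen by symbol, as all probe sets whose platform annotation gives exactly 1 gene symbol from this list, and 14 probe sets for 10 genes were found among 14217 genes measured. The 5P group consisted of 3 arrays of liver RNA from male Wistar rats given a low-protein diet, and the 15P group of 3 arrays of liver RNA from male Wistar rats given the control diet of equal energy content. Per the labels all rats were 6 weeks old and weighed about 150 g on purchase, had 4 days on commercial pellets and 4 days of training to eat the 15P diet in a daily window, then ate their assigned diet for 8 hours and were starved for 16 hours before the liver was taken. Both groups were therefore fasted, and the comparison is of 1 feeding period on either diet followed by that fast. Nothing in the labels ties each array to its own animal, so p-values cover the spread among these 6 arrays, which may be technical.

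Fatty acids that enter a liver cell are joined to coenzyme A and, when long, need a carnitine shuttle to reach the mitochondrial matrix. CPT1A at the outer membrane makes acylcarnitine and is inhibited by malonyl-CoA, the carrier encoded by Slc25a20 exchanges it for free carnitine across the inner membrane, and CPT2 restores the acyl-CoA. Beta-oxidation then repeats a cycle in which an acyl-CoA dehydrogenase matched to the chain length removes hydrogen, a hydratase and a second dehydrogenase act in turn, and a thiolase releases acetyl-CoA. In the fasted liver this acetyl-CoA largely feeds ketone body synthesis, and many genes of the pathway are known targets of the nuclear receptor PPARalpha.

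RNA from the carnitine shuttle genes and from Hadha, Hadhb and Acaa2 averaged 1.22 to 1.47 times the 15P level in 5P livers. These differences did not pass the test. RNA of the 4 acyl-CoA dehydrogenase genes averaged between 0.981 and 1.11 times the 15P level. Hadha, Hadhb and Acaa2 are called the later-step genes here, and these roles were set with the values known. Taking the brightest probe set of each gene, 9 of 10 genes had a positive log2 fold change and Acadl a negative one, against 57.6% positive among all genes and 52.2% among the 1633 genes at least as bright as the dimmest of the 10. The median log2 fold change over the 10 genes was 0.32, against 0.03 over all genes and 0.0096 over those 1633. None of the 10 genes and none of the 14 probe sets passed limma's moderated test at a Benjamini-Hochberg adjusted p under 0.05 over 31042 probe sets, where 0.183% of genes and 0.132% of probe sets passed. At an unadjusted p under 0.05, 5 of 10 genes were higher (Cpt1a, Slc25a20, Hadha, Hadhb and Acaa2) and 0 lower, against 8.41% of all genes higher and 8.02% lower. All 3 5P arrays lay above all 3 15P arrays for 5 of 10 genes (Cpt1a, Slc25a20, Acadm, Acads and Hadhb), against 12.8% of all genes and 17.3% of the equally bright ones.

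The promoter windows of the 3 shuttle genes and of the gene pair Hadha and Hadhb are printed because these genes had the higher averages in 5P livers, and because Hadha and Hadhb are transcribed away from each other from neighbouring starts. Each window runs from 250 bases before to 50 bases after the start of the gene in RefSeq's annotation of the rat assembly GRCr8, 5′ to 3′ on the gene's own strand. Capitals mark 3 short motifs on either strand: GGGCGG (the GC box), the CCAAT box, and AGGTCA (the half-site bound by many nuclear receptors). A match on the opposite strand appears as the reverse complement, and no 2 of the marked matches overlap in these windows.
Cpt1a (chr1:209995910-209996209, plus strand): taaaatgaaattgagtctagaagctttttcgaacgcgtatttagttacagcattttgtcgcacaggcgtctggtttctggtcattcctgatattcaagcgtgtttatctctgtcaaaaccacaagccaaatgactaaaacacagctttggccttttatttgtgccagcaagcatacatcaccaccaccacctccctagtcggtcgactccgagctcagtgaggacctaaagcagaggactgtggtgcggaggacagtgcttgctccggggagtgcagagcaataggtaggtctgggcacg
Slc25a20 (chr8:118243323-118243622, plus strand): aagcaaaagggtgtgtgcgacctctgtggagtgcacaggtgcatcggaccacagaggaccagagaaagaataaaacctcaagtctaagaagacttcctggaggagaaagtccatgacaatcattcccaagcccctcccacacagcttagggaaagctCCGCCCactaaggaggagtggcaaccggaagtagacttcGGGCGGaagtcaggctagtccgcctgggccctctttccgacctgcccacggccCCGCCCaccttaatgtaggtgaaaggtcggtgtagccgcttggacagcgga
Cpt2 (chr5:127910769-127911068, minus strand): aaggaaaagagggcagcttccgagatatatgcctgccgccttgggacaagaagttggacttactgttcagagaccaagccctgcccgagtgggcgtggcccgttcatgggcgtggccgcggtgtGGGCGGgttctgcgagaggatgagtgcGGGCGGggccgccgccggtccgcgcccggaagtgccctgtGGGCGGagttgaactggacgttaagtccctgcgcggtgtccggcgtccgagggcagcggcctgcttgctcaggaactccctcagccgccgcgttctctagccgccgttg
Hadha (chr6:31907551-31907850, plus strand): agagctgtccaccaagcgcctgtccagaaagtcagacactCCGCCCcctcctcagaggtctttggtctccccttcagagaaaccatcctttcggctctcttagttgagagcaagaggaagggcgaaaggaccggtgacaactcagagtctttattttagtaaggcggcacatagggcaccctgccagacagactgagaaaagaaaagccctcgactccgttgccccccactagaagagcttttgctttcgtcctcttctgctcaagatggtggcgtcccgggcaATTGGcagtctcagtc
Hadhb (chr6:31907451-31907750, minus strand): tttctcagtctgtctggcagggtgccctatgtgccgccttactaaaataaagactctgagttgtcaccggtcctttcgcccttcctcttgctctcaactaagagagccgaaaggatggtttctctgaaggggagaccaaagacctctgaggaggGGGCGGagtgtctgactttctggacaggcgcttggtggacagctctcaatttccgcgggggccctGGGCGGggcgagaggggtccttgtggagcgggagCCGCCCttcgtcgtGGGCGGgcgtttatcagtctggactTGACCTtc

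Of the 10 genes 8 had a window (Acadl and Acaa2 had no entry), and 6 of these 8 held a GC box, against 33.1% of all 33469 windows. In Slc25a20 it stood at -93, -54 and -1 from the start, and in Cpt2 at -126, -99 and -59 (first base of each motif). The Cpt1a window held none of the marked motifs and was 48.3% G and C, against 66.7% in Cpt2, 56.7% in Slc25a20 and a median of 51.7% over all windows. The share was 65.0% in Acadm, 55.7% in Acadvl, 66.0% in Acads, 54.3% in Hadha and 58.3% in Hadhb. The part of this share in the GC box count was not tested. The starts of Hadha, on the plus strand, and Hadhb, on the minus strand, lay 301 bases apart, so that their windows share 200 bases. The GC box at -210 from the Hadha start is the same site as the one at -96 from the Hadhb start. It is the only GC box in the Hadha window, so that window enters the count through a shared site. CCAAT occurred in 2 of the 8 windows (Acads and Hadha) against 37.5% of all, and AGGTCA in 2 (Acadvl and Hadhb) against 16.2%. The direct repeat AGGTCANAGGTCA, the arrangement that PPARalpha binds with its partner RXR, was searched on both strands with N as any base; it occurred in 0 of the 8 windows and in 0.0538% of all, and TATAAA in 0 of 8 and 14.2% of all. These are letter matches in short windows and no measure of binding.

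The arrays were alike in scale: the median intensity ran from 33.8 to 34.3 on the 5P arrays and from 33.3 to 33.7 on the 15P arrays. 15P replicate 3 stood apart from its group: on the leading principal component (36.9% of the variance) the 5P arrays scored 17.3 to 22.6, 15P replicate 3 -10.1 and the other 15P arrays -26.9 and -22.5. Hepatocyte markers were bright throughout, Alb reading 14.39 to 14.40 on the 5P arrays and 14.38 to 14.40 on the 15P arrays (log2 intensity), near the top of the measured range, although the summed intensity of the 7 measured hepatocyte markers was 78087 to 79091 in 5P and 80064 to 80861 in 15P livers. Of 4 measured red blood cell markers 0 passed limma's test, against 0.183% of all genes. At an unadjusted p under 0.05 by limma, 2 were higher and 0 lower, against 8.41% of all genes higher and 8.02% lower. Positive fold changes were seen in 3 of the 4, against 57.6% of all genes, and 2 (Hbb and Alas2) had all 5P arrays above all 15P arrays, against 12.8% of all genes. Their summed intensity, most of it from Hbb, was 4030 to 4294 in 5P and 2845 to 3100 in 15P livers. The part of these markers in the results was not tested. In bulk tissue, more cells of a type and more RNA per cell cannot be told apart.

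**Figure D1:**
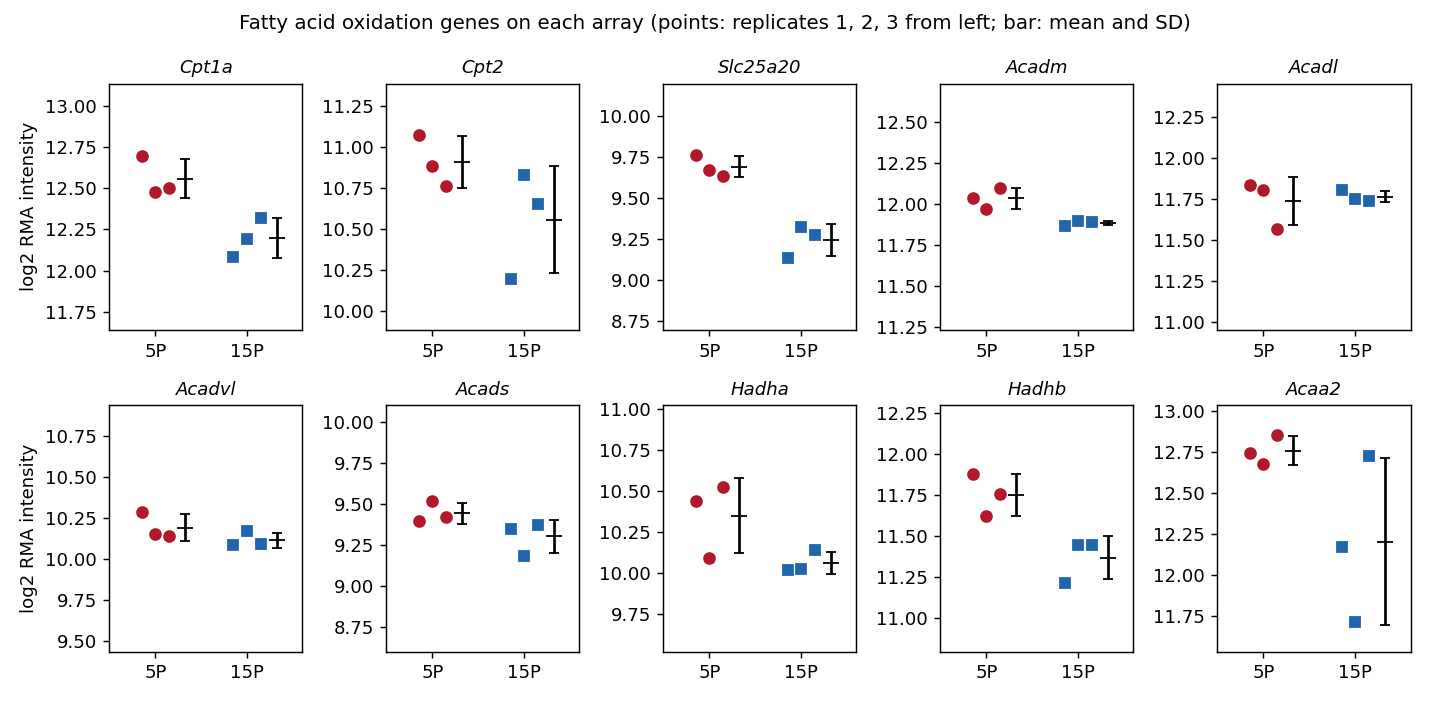
Log2 RMA intensity of the brightest probe set of each of the 10 genes on each array; circles are the 3 5P arrays and squares the 3 15P arrays, replicates 1 to 3 from left, and bars show the mean and SD. Every panel spans the same height on the log2 scale, so that the wide gaps of Slc25a20, Cpt1a and Hadhb can be set against the nearly level Acadl and Acadvl.

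Of the shuttle genes, Slc25a20, the carnitine-acylcarnitine carrier, separated the diets most clearly. It read 9.76, 9.67 and 9.64 (log2 intensity) in 5P livers and 9.13, 9.32 and 9.28 in 15P livers. The groups were 0.32 apart at their nearest arrays, and each group was narrower than that gap. The log2 fold change was 0.45 (SE 0.0912), or 1.36-fold (95% interval 1.18 to 1.57, unadjusted), with an adjusted p = 0.0911 by limma. It stayed between 0.39 and 0.49 over the alternative settings, with adjusted p between 0.0704 and 0.248.

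Cpt1a, the regulated outer-membrane enzyme, read 12.70, 12.48 and 12.50 in 5P livers and 12.08, 12.19 and 12.32 in 15P livers with its brightest probe set (log2 intensity). The groups did not overlap, with 15P replicate 3 nearest to the 5P arrays. The fold was 1.28 (95% interval 1.09 to 1.51) with an adjusted p = 0.172 by limma. Its second probe set read 9.04, 9.06 and 9.18 in 5P livers and 8.43, 8.41 and 8.79 in 15P livers. These groups were also apart, and 15P replicate 3 was again the highest of its group. That probe set gave 1.47-fold (95% interval 1.21 to 1.78) with an adjusted p = 0.104, and it was the 1 member probe set that passed in any alternative: without 15P replicate 3 its log2 fold change was 0.68 with an adjusted p = 0.048 by limma (0.048 to 0.262 over the alternatives).

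Cpt2, the matrix-side enzyme, read 11.08, 10.88 and 10.76 in 5P livers and 10.20, 10.83 and 10.65 in 15P livers. The groups overlapped, and 15P replicate 1 lay well below every other array. The log2 fold change of 0.35 (SE 0.164, adjusted p = 0.355 by limma) became 0.17 without that array, and the fold of 1.27 had a 95% interval of 0.981 to 1.65. A muscle form of the outer-membrane enzyme, Cpt1b, read 4.60 to 4.70 in 5P livers and 4.63 to 4.77 in 15P livers, with a log2 fold change of -0.04 (SE 0.0871; 0.010 without 15P replicate 3 and 0.013 with 75th-percentile centring).

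The 4 acyl-CoA dehydrogenase genes differed less between the diet means. Acadm, the medium-chain enzyme, read 12.04, 11.97 and 12.10 in 5P livers and 11.87, 11.89 and 11.89 in 15P livers. The 15P arrays were almost identical and all 5P arrays lay just above them, 0.0747 apart at the nearest. The fold was 1.11 (95% interval 0.973 to 1.27; adjusted p = 0.423 by limma). Acads, the short-chain enzyme, read 9.40, 9.52 and 9.42 in 5P livers and 9.35, 9.19 and 9.38 in 15P livers. Here too the groups were apart, but by only 0.0241, and the fold was 1.10 (95% interval 0.953 to 1.28), its log2 value of 0.14 becoming 0.083 without 15P replicate 2.

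Acadvl, the very-long-chain enzyme of the inner membrane, read 10.28, 10.15 and 10.14 in 5P livers and 10.09, 10.17 and 10.09 in 15P livers. Apart from 5P replicate 1 the arrays of both diets covered the same range, and the log2 fold change of 0.077 became 0.031 without that array. Acadl, the long-chain enzyme of rodent liver, read 11.83, 11.80 and 11.57 in 5P livers and 11.80, 11.75 and 11.74 in 15P livers. The groups overlapped, with 5P replicate 3 lowest of all. Its fold was 0.981 (95% interval 0.839 to 1.15), and the log2 value of -0.03 turned to 0.057 without 5P replicate 3 and to 0.022 when each array was centred on its 75th percentile. The upper ends of the 4 intervals ran from 1.15 (Acadl) to 1.28 (Acads), and the adjusted p of Acadl, Acadvl and Acads by limma were 0.93, 0.715 and 0.5.

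The later steps on long chains are carried by the mitochondrial trifunctional protein, whose alpha subunit, encoded by Hadha, holds the hydratase and dehydrogenase activities and whose beta subunit, encoded by Hadhb, holds a thiolase. Hadhb read 11.88, 11.62 and 11.76 in 5P livers and 11.22, 11.45 and 11.45 in 15P livers. The groups did not overlap. The fold was 1.30 (95% interval 1.10 to 1.55) with an adjusted p = 0.166 by limma.

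Hadha read 10.44, 10.09 and 10.52 in 5P livers and 10.02, 10.03 and 10.14 in 15P livers with its brightest probe set. On 5P replicate 2 it fell among the 15P values, and this was also the lowest of the 5P arrays for Hadhb. The fold was 1.22 (95% interval 1.01 to 1.48; adjusted p = 0.313 by limma), against the 1.30 of the partner subunit whose gene start lies 301 bases away. The other 2 Hadha probe sets did not show the difference: one read 4.67 to 4.93 in 5P and 4.85 to 5.08 in 15P livers, with a log2 fold change of -0.13 (SE 0.106; -0.05 without 5P replicate 3 and -0.061 without 15P replicate 1), the other 3.22 to 3.64 in 5P and 3.21 to 3.60 in 15P livers, with -0.012 (SE 0.143). Both were dim, brighter than 47.0% and 18.7% of all probe sets, where the brightest one exceeded 96.2%.

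Acaa2, the 3-ketoacyl-CoA thiolase of the matrix, had the largest fold among the 10 genes and the widest spread. It read 12.74, 12.68 and 12.85 in 5P livers and 12.17, 11.71 and 12.73 in 15P livers. The 5P arrays lay close together, the 15P arrays were scattered over 1 unit, and 15P replicate 3 lay among the 5P arrays. The fold was 1.47 (95% interval 1.03 to 2.08; adjusted p = 0.283 by limma). The log2 value of 0.55 was 0.82 without 15P replicate 3 and 0.31 without 15P replicate 2. Its second probe set read 9.87, 8.64 and 9.19 in 5P livers and 8.10, 8.32 and 8.50 in 15P livers. There the groups were apart and the 5P arrays were the scattered ones, giving 1.90-fold (95% interval 1.24 to 2.92; adjusted p = 0.177 by limma), with a log2 value of 0.61 in place of 0.93 without 5P replicate 1.

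**Figure D2:**
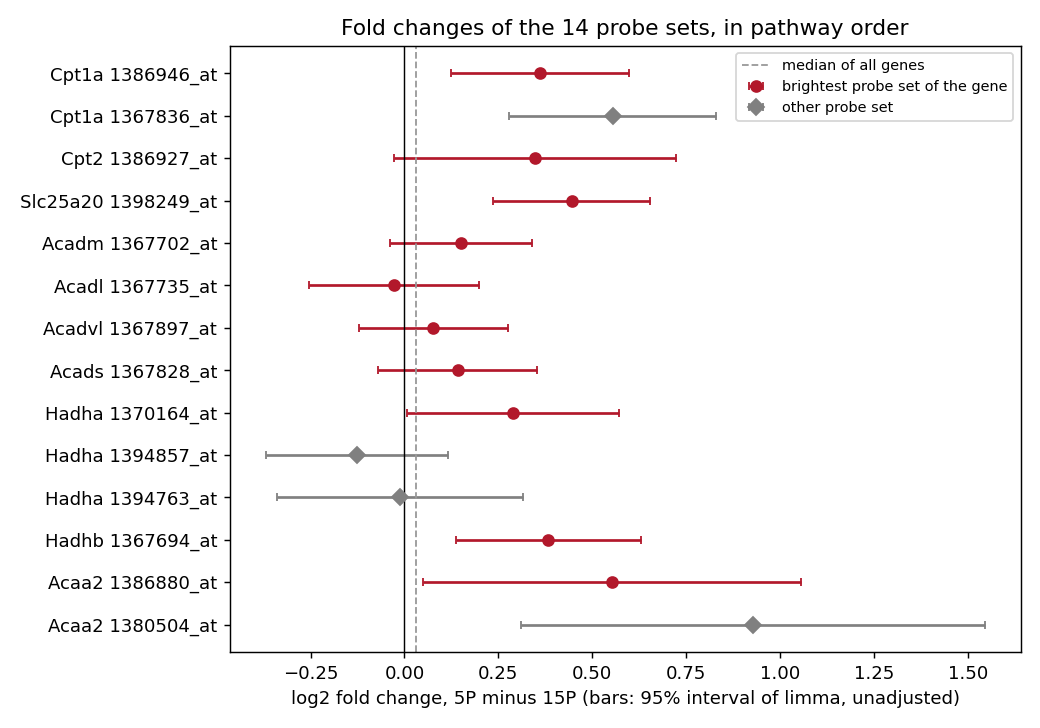
Log2 fold change (5P minus 15P) of all 14 probe sets in pathway order, with limma's unadjusted 95% interval; red circles are the brightest probe set of each gene, grey diamonds the others, and the dashed line is the median of all genes. The intervals of Slc25a20, Hadhb, both Cpt1a and both Acaa2 probe sets lie above 0, that of the brightest Hadha probe set only just. Those of Cpt2, the other Hadha probe sets and the 4 dehydrogenase genes span it.

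Averaged by role, the shuttle genes stood 0.51, 0.34 and 0.30 (log2) above the 15P mean on 5P replicates 1, 2 and 3, against -0.20, 0.11 and 0.083 on the 15P replicates. The later-step genes stood 0.47, 0.25 and 0.499 above it on the 5P replicates, against -0.076, -0.15 and 0.23 on the 15P replicates. The dehydrogenase genes stood 0.12, 0.094 and 0.040 above it on the 5P replicates, against 0.011, -0.017 and 0.0067 on the 15P replicates. The mean of the dehydrogenase genes thus held to a narrow band on all 6 arrays. Single genes of that role varied more, Acads reading 9.19 to 9.52 and Acadl 11.57 to 11.83 over the 6 arrays. The means of both other roles varied among the 15P arrays by nearly the size of their own diet difference. The difference between the roles was not tested, since these roles were set with the values known.

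**Figure D3:**
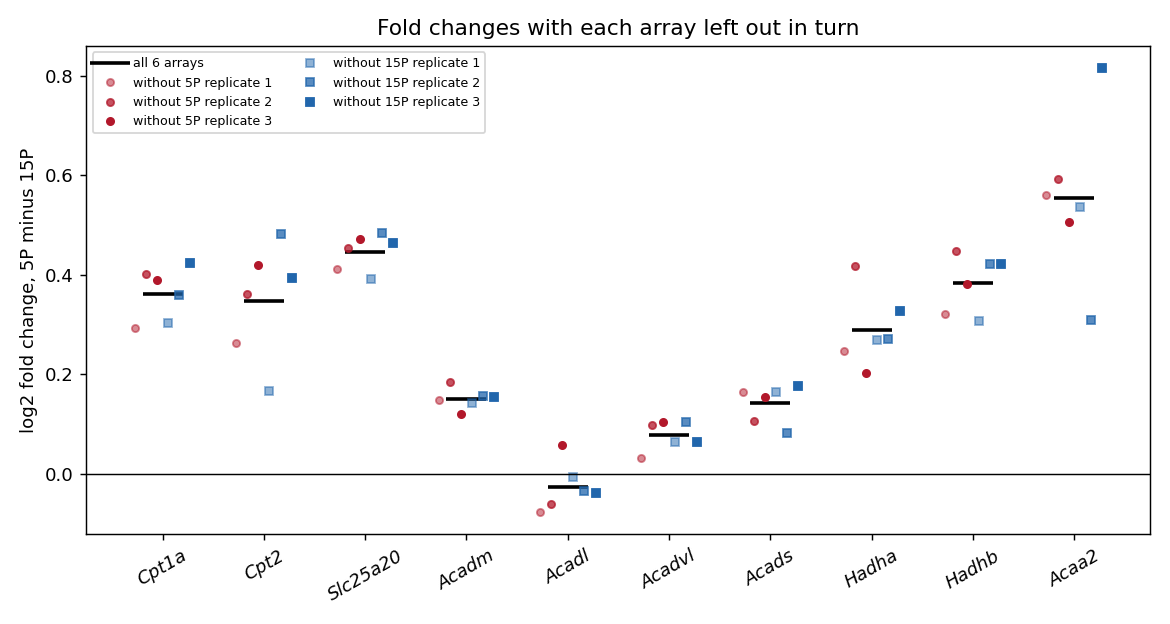
Log2 fold change (5P minus 15P) of the brightest probe set of each gene with all 6 arrays (black line) and with each array left out in turn (circles, a 5P array left out; squares, a 15P array left out). Slc25a20 and Hadhb stay within 0.31 to 0.48, Cpt2 falls to 0.17 without 15P replicate 1, Acaa2 runs from 0.31 to 0.82 with the choice of 15P arrays, and Acadl is the 1 gene that crosses 0.

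Around these 10 genes, 9 further lists held 75 genes, of which 68 had a probe set with 1 gene symbol; none of the 68 passed limma's test over all probe sets, where 0.183% of genes did, and at an unadjusted p under 0.05 11 were higher, against 8.41% of all genes, and 9 lower, against 8.02%. Among the other enzymes of beta-oxidation the median log2 fold change was -0.01, with 5 of 10 genes higher. Yet 2 isomerases that handle unsaturated chains read far higher. Ech1 read 11.70, 11.52 and 11.98 in 5P livers and 10.03, 10.66 and 10.78 in 15P livers (log2 fold change 1.24, SE 0.202). Its adjusted p by limma was 0.0603, and 0.0478 with array weights. No 5P array came near a 15P array. Eci1 read 12.53, 12.00 and 12.70 in 5P livers and 11.18, 11.80 and 11.55 in 15P livers (log2 fold change 0.90, SE 0.207), and its second, dim probe set gave 0.10, running from -0.079 to 0.31 over the left-out arrays. Decr1, the reductase for unsaturated chains, had 0.31 (SE 0.114), and Acad11, another acyl-CoA dehydrogenase, 0.41 (SE 0.128; 0.27 without 15P replicate 1). Echs1, the short-chain hydratase, was lower, at 10.71, 10.70 and 10.42 in 5P livers and 11.20, 10.94 and 11.05 in 15P livers (log2 fold change -0.45, SE 0.116, adjusted p = 0.144 by limma). With their brightest probe sets, Hadh and Hsd17b10 of the same list had 0.018 (SE 0.0861) and -0.091 (SE 0.116). A second, dim Hadh probe set gave 0.26 (SE 0.153). The genes that pass electrons from the dehydrogenases to the respiratory chain lay near 0: Etfb had 0.18 (0.12 without 5P replicate 2), Etfdh 0.046 (-0.046 without 5P replicate 1) and Etfa -0.03 (0.019 with 75th-percentile centring).

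Carnitine genes beyond the shuttle had a median of 0.095, with 6 of 8 higher. Slc22a5, the plasma membrane carnitine transporter, read 8.30, 8.22 and 8.42 in 5P livers and 7.24, 7.60 and 7.93 in 15P livers (log2 fold change 0.72, SE 0.163, adjusted p = 0.11 by limma), with no overlap. Crat, carnitine acetyltransferase, had 1.01 (SE 0.354), with 15P values scattered from 6.65 to 8.08 and 5P values from 7.92 to 8.83, and its log2 fold change was 0.62 without 15P replicate 1. Crot, the octanoyltransferase of peroxisomes, had 0.33 (SE 0.137; 0.19 without 15P replicate 1), and Tmlhe, which starts carnitine synthesis, had -0.36 (SE 0.0927), its 5P values of 7.60 to 7.67 lying below the 15P values of 7.87 to 8.10. The other Crot probe sets gave 0.44 (SE 0.121) and 0.21 (SE 0.102).

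Thioesterase and coenzyme A supply genes had a median of 0.30, with 7 of 8 higher. Vnn1, a pantetheinase known as a PPARalpha target, and the mitochondrial thioesterase gene Acot2 stood 1.49 (SE 0.219) and 0.95 (SE 0.176) higher on the log2 scale, with adjusted p = 0.0551 and 0.0794 by limma. Vnn1 passed without 15P replicate 1 (1.21, adjusted p = 0.0363) and without 15P replicate 3 (1.68, adjusted p = 0.0319), and in 3 of the other settings. The thioesterase gene Acot9 had 0.39 (SE 0.164) and Coasy, the last step of coenzyme A synthesis, -0.22 (SE 0.108). Genes of the steps before the shuttle were mostly lower. Of 9 genes of fatty acid uptake and activation 7 were lower, with a median of -0.14, and 5 had all 5P arrays below all 15P arrays, against 10.1% of all genes. Acsl3, an acyl-CoA synthetase, read 5.81, 6.00 and 5.43 in 5P livers and 7.25, 6.91 and 6.66 in 15P livers (log2 fold change -1.19, SE 0.182, adjusted p = 0.0551 by limma; 0.046 without 15P replicate 3). The related synthetases Acsl5, Acsl4 and Acsl1 had -0.56 (SE 0.145), -0.41 (SE 0.149) and -0.19 (SE 0.0934), with -0.13 for Acsl1 without 5P replicate 2. A dimmer probe set each of Acsl5 and Acsl1 gave 0.023 and 0.16; with single arrays left out Acsl5 then lay between -0.025 and 0.084, and Acsl1 between 0.074 and 0.22.

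**Figure D4:**
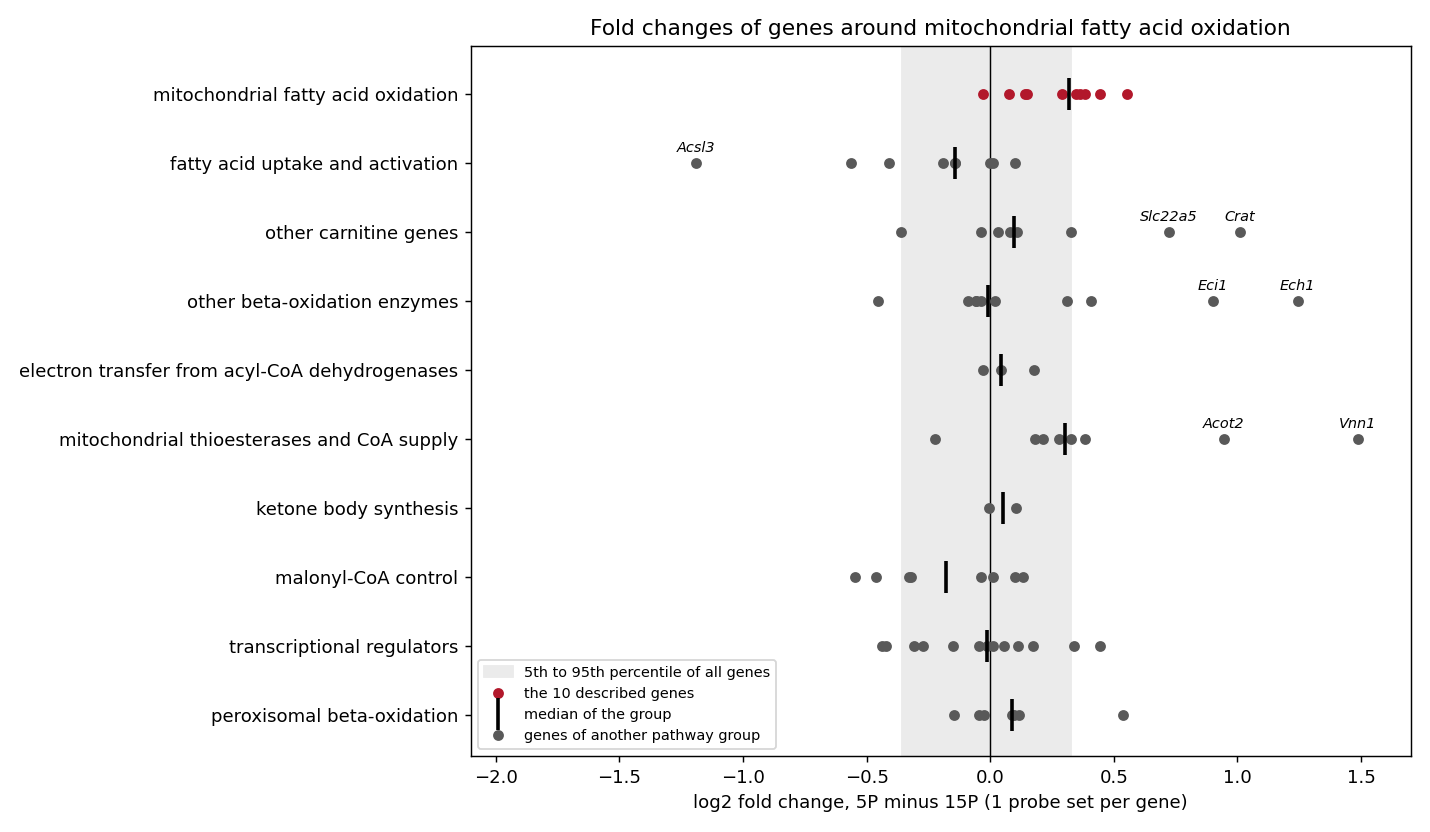
Log2 fold change (5P minus 15P) of each gene, 1 probe set per gene, for the 10 described genes (red) and 9 related lists (grey), with the median of each list as a black bar and the 5th to 95th percentile of all genes (-0.36 to 0.33) shaded. Vnn1, Ech1, Crat, Acot2, Eci1 and Slc22a5 lie far to the right and Acsl3 far to the left, while ketone body, electron transfer and most peroxisomal genes lie near 0.

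The list of malonyl-CoA control, the brake on the shuttle, holds genes that make malonyl-CoA and genes that act against it. Its median was -0.18, with 5 of 8 genes lower, which over such opposed genes gives no direction for the brake. Acaca, which makes malonyl-CoA, read 9.99, 10.45 and 9.62 in 5P livers and 10.45, 10.41 and 10.58 in 15P livers, overlapping at 5P replicate 2 (log2 fold change -0.46, SE 0.185; -0.26 without 5P replicate 3). Its second, dim probe set gave -0.096 (SE 0.113). Acacb, the form at the mitochondrial surface, had -0.32 (SE 0.113) at a dim level of 3.92 to 4.20 in 5P and 4.25 to 4.51 in 15P livers. The AMP-activated kinase subunits Prkaa2 and Prkab1, part of the enzyme that inhibits both, had -0.33 (SE 0.096) and -0.55 (SE 0.185), the value of Prkab1 being -0.34 without 15P replicate 1. None of these genes passed with its brightest probe set (adjusted p between 0.178 and 0.288 by limma). The kinase subunits Prkaa1, Prkag1 and Prkab2 had 0.011 (SE 0.0862), -0.035 (SE 0.0943) and 0.10 (SE 0.0877). Dimmer probe sets gave -0.037 (SE 0.145) and 0.15 (SE 0.101) for Prkaa1 and 0.31 (SE 0.104) for Prkab2. Kinase subunit RNA thus did not move in 1 direction.

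Of 13 measured transcriptional regulators 6 were higher and 7 lower, with a median of -0.01. Creb3l3, a liver factor of the fasting response, read 11.68, 11.57 and 11.72 in 5P livers and 10.94, 11.39 and 11.30 in 15P livers (log2 fold change 0.45, SE 0.128, adjusted p = 0.171 by limma). Ppargc1a, a coactivator of PPARalpha, had negative log2 fold changes on all 3 of its probe sets, at -0.44 (SE 0.218), -0.92 (SE 0.153) and -0.62 (SE 0.314). The first ran from -0.65 to -0.28 over the left-out arrays (-0.28 without 5P replicate 1) and the third from -0.95 (without 15P replicate 3) to -0.36 (without 5P replicate 1), with -0.39 without 15P replicate 2. The second had an adjusted p = 0.0652 by limma (0.0319 without 15P replicate 3 and 0.0443 with array weights) and its 5P arrays, at 5.30 to 5.63, below its 15P arrays, at 6.09 to 6.65. Lpin1, Ncor1 and Ppara had -0.31 (SE 0.222), -0.15 (SE 0.0867) and -0.42 (SE 0.403). The other Ncor1 probe sets gave -0.25 (SE 0.113) and 0.043 (SE 0.270). Lpin1 had -0.55 without 15P replicate 1, -0.13 without 15P replicate 2 and -0.18 without 5P replicate 3. Ppara was scattered in 15P livers, at 4.67, 6.49 and 6.17, and read 5.28, 5.56 and 5.21 in 5P livers, so that its log2 fold change was -0.98, -0.065 and -0.23 without 15P replicates 1, 2 and 3 in turn. Fgf21, the hormone of the series title, was 1.99 higher on the log2 scale (SE 0.386), with adjusted p = 0.0858 by limma and 0.042 without 15P replicate 3.

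Downstream, the ketone body genes Acat1 and Bdh1 had 0.11 (SE 0.0944; 0.038 without 5P replicate 2 and 0.061 with quantile normalization) and -0.0031 (SE 0.0843), Bdh1 changing sign in 4 alternative settings and its second probe set giving 0.24. The parallel pathway in peroxisomes had 4 of 7 measured genes higher and a median of 0.090. Pex11a, a gene of peroxisome division, had 0.54 (SE 0.274), Scp2, with a thiolase form, -0.15 (SE 0.106), Hsd17b4, the multifunctional enzyme, 0.12 (SE 0.0866) and Acox3, an oxidase, 0.096 (SE 0.0937), and none of them reached an unadjusted p under 0.05. Single arrays carried much of these values: Pex11a had 0.24 without 5P replicate 1 and 0.32 without 15P replicate 1, Scp2 -0.062 without 5P replicate 2, and Acox3 0.044 without 15P replicate 1 and 0.045 without 5P replicate 3.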

How the data were processed

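Biotin-labelled liver RNA was measured on 6 Affymetrix arrays (per the labels). Each array has 1 deposited intensity per probe set; the submitters' processing notes name RMA, with software and version not given in the sources used here. Because RMA includes a normalization between arrays, a shift common to most genes is largely removed. The values ran from 3.61 to 21668 and were read as linear, and log2 was taken. Of 31099 probe sets 57 controls were left out. Among the 31042 tested, 20826 had 1 gene symbol, 436 several and 9780 none; symbols come from the platform annotation, and the gene IDs of all 10 genes matched RefSeq (GRCr8). A gene stands by its probe set of highest mean.

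The 5P arrays were compared with the 15P arrays with limma 3.58.1 in R 4.3.3 (lmFit, eBayes, two-sided, Benjamini-Hochberg over all probe sets, threshold 0.05; 4 residual and 8.38 total degrees of freedom), which was tested on simulated data first. Log2 fold changes are 5P minus 15P. Arrays carry no read depth, and 3 per diet limit the precision.

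The 10 genes and the lists were chosen with earlier results of these data known. Named besides the 10 are up to 4 genes of smallest p per list, Fgf21 and the 5 genes of most similar profile. Decr1, Ppara, Cpt1b, Hadh, Hsd17b10, Prkaa1, Prkag1, Prkab2 and the markers Alb, Hbb, Alas2, Slc4a1 and Epb42 were added after their values were seen. Hadh, Hsd17b10, Prkaa1, Prkag1 and Prkab2 were not followed over the alternative settings. Alternatives were the prior variance, scaling, intensity filters, array weights, the replicate block, each array left out, and other rules for genes with several probe sets. Equal replicate numbers did not pair the samples. Figures were drawn with matplotlib 3.10.9.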

Additional observations from a re-analysis of the deposited data

How the results depend on the processing

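In 18 alternative settings none of the 10 genes passed, and of the 14 probe sets 1 did, the second Cpt1a probe set without 15P replicate 3 (0 to 1 over the left-out arrays). The median log2 fold change of the 10 genes, 0.32, ran from 0.22 to 0.38 over the left-out arrays, the lowest being without 15P replicate 1. Of the 14 probe sets 12 kept their sign in every setting that gave them a value. Acadl turned to 0.022 with 75th-percentile centring and ran from -0.077 to 0.057 over the left-out arrays (0.057 without 5P replicate 3). The dimmest Hadha probe set turned to 0.037 with 75th-percentile centring and ran from -0.14 to 0.0998 over the left-out arrays. Among the other named genes, Bdh1 turned to 0.046 with 75th-percentile centring, 0.014 with quantile normalization and ran from -0.033 to 0.039 over the left-out arrays, Etfa turned to 0.019 with 75th-percentile centring, Etfdh ran from -0.046 to 0.17 over the left-out arrays, Cpt1b turned to 0.013 with 75th-percentile centring and ran from -0.063 to 0.010, the second Acsl5 probe set turned to -0.0048 with median centring and ran from -0.025 to 0.084, and the second Eci1 probe set ran from -0.079 to 0.31. Of the related lists 0 genes passed as reported, 2 with a robust prior variance (Acsl3 and Vnn1), 1 with median centring (Acsl3), 1 with 75th-percentile centring (Vnn1), 3 with array weights (Acsl3, Ech1 and Vnn1) and 0 to 2 over the left-out arrays. Over all probe sets 41 passed, against 103 with a robust prior variance, 78 with median centring, 102 with array weights, 16 to 109 over the left-out arrays (109 without 15P replicate 3) and 6 with the replicate block; with 1 probe set per gene, an alternative chosen after seeing the data, 26 genes passed. Of these calls 26.8% were higher in 5P as reported, but 16.7% after centring on medians and 40.7% after centring on 75th percentiles, 11.8% (without 15P replicate 2) to 40.9% (without 5P replicate 1) over the left-out arrays and 50% of the 6 calls with the replicate block, while the median over all probe sets stayed between -0.0055 and 0.081 (log2). The deviations of equally numbered arrays from their group means correlated at -0.087, -0.027 and -0.10, so the numbers gave no pairing; with the replicate block 0 of the 10 genes passed. The causes of these shifts were not tested.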

Other observations

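The 5 genes outside the lists whose profile over the 6 arrays was most like the mean standardised profile of the 10 genes were Mef2b, Svs1, Hdhd3, Cnksr2 and Myo5b, with log2 fold changes of 0.40, 0.34, 0.30 and 0.27 for the first 4. Likeness was measured as Pearson's r over 6 arrays of 2 diets, so that the diet difference is part of it, and it was highest for Mef2b. The 5 were picked as the highest of all genes outside the lists, so a high r comes with the choice. Mef2b, Svs1 and Cnksr2 were brighter than only 53.8%, 42.6% and 41.2% of all probe sets. None of the first 4 passed limma's test (adjusted p between 0.148 and 0.229). Myo5b, a myosin motor gene, read 7.42, 7.09 and 6.93 in 5P livers and 5.92, 6.13 and 6.38 in 15P livers, 2.003-fold higher (SE of the log2 value 0.157) with no overlap, and had an adjusted p = 0.0571 by limma (0.046 without 15P replicate 3). Among the 10 genes themselves Cpt1a followed the mean profile most closely and Acadl not at all. Each of the 10 is itself part of that profile, which raises its r.

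Among markers of other cell types, the summed intensities of 2 lists did not overlap between the diets, those of red blood cells and of muscle. Muscle markers summed to 77.4 to 81.1 (intensity) in 5P and 73.4 to 74.6 in 15P livers, a low total for 5 genes, and adipocyte markers to 211 to 237 in 5P and 204 to 237 in 15P livers. Of the 5 muscle markers 2 were higher in 5P livers and 3 lower, against 57.6% of all genes higher. Their median log2 fold change was -0.016. Macrophage markers summed to 2067 to 3203 in 5P and 1767 to 2226 in 15P livers, endothelial markers to 1238 to 1639 in 5P and 1310 to 1629 in 15P livers. Stellate and fibroblast, bile duct, and lymphocyte and neutrophil markers overlapped between the diets. The red blood cell genes Slc4a1 and Epb42 had log2 fold changes of 0.14 and -0.058, against 0.48 for Hbb and 0.43 for Alas2. Over the left-out arrays Slc4a1 ran from 0.071 (without 5P replicate 2) to 0.23 (without 15P replicate 2) and Epb42 from -0.10 (without 5P replicate 2) to -0.0065 (without 5P replicate 3).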
